A study of Mus musculus with 9 samples.

Results

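Immediate early genes are the first genes a cell transcribes after a stimulus, and 8 of them were followed across the cochleae of Pou4f3 mutant and wild-type mice: Egr1, Egr3, Fos, Fosb, Jun, Junb, Ier2 and Dusp1. They were taken by symbol and found by Ensembl identifier, 8 of 51912 genes with a value in each HET and WT library. Expression was measured by RNA-seq of cochleae at postnatal day 3 in Pou4f3(Δ/Δ) mice (HOM), Pou4f3(Δ/+) mice (HET) and Pou4f3(+/+) mice (WT), with 3 libraries in each group. Pou4f3 is a transcription factor that the sensory hair cells need to mature and survive. The labels do not say what Δ removes, nor the strain, how many animals gave a library or whether cochleae were pooled, so p-values measure the spread between these libraries, which may be technical. Groups follow the sample titles; in all 9 samples the genotype characteristic names a different genotype, and every direction below rests on the titles. The HOM libraries list 1137 genes, and of the 8 immediate early genes only Egr1 is among them; the other 7 are not listed there, which is not a value of 0.

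Egr1 and Egr3 are zinc finger transcription factors. Fos, Fosb, Jun and Junb are leucine zipper proteins and subunits of the dimeric transcription factor AP-1. Ier2 is a short nuclear protein, and Dusp1 is a phosphatase that switches off the mitogen-activated protein kinases that induce these genes. Transcription of the group is switched on within minutes by serum response factor with its ternary complex partners and by CREB, and their mRNAs are short-lived, so a level changes quickly with signalling. In the inner ear, as elsewhere, these genes are used as marks of recent cell activity or stress.

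The Pou4f3 level goes with the titles for HOM and does not separate HET from WT. Pou4f3 was at 5.92, 1.36 and 9.39 FPKM (a gene's fragments scaled to its length and to the depth of the library) in HOM replicates 1 to 3, at 24.2, 21.7 and 25.6 FPKM in HET, and at 25.02, 24.5 and 26.97 FPKM in WT. Depth, recovered from the steps between low values, ran from 14320000 to 17410000 fragments per library; in HOM it rests on 21 to 26 values a library. Markers of hair cells and supporting cells were present in each HET and WT library, with summed levels of 209.9 to 232.7 FPKM in HET and 204.2 to 257.3 FPKM in WT over 10 hair cell genes. HET replicate 1 and WT replicate 3 stood apart from the other 4 HET and WT libraries on the first axis of variance, which held 58.1% of it, and results are given with and without them where this pair bears on a value.

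RefSeq promoters (GRCm38.p6) matched 5 of the 8 genes, Fos, Fosb, Jun, Junb and Dusp1; Egr1, Egr3 and Ier2 had no entry. The stretches are shown because their matches to motifs of regulators, such as the CREB element, differ between the genes. Each is 150 bases on the gene's own strand, 5′ to 3′, and capitals mark every match on either strand to TGACG (the core of the CREB element), TGACNTCA (the full CREB element and its AP-1-like variant), TGANTCA (the AP-1 element), TATAAA, GCGGGGGCG (an EGR element) and the CArG box of serum response factor. TGACG overlaps TGACNTCA where N is G. Positions are counted backwards from the start site, whose preceding base is -1.
Fos: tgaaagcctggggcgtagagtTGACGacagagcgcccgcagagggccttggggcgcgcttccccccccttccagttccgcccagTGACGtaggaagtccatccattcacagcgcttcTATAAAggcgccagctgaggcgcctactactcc
Fosb: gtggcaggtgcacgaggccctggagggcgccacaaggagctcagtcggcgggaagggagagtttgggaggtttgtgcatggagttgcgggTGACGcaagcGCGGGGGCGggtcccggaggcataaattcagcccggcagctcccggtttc
Jun: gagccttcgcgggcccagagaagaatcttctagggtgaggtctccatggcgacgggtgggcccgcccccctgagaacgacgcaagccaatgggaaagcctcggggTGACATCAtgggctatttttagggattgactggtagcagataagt
Junb: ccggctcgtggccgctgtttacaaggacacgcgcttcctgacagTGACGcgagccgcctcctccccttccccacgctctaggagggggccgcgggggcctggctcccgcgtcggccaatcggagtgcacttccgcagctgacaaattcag
Dusp1: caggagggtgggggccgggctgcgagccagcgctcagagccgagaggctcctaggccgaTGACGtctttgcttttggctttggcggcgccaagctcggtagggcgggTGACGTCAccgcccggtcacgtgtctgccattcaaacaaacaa
The Fos stretch is chr12:85473740-85473889 on the + strand, that of Fosb chr7:19310046-19310195, of Jun chr4:95052223-95052372 and of Junb chr8:84978749-84978898, all 3 on the - strand and all from -150 to -1. The Dusp1 stretch, chr17:26508573-26508722 on the - strand, runs from -250 to -101, where its matches lie.

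In the 250 bases before the start site, TGACG was found in 4 of these 5 promoters (Fos, Fosb, Junb and Dusp1), against 17.8% of 32851 RefSeq promoters. In Fos it lies at -129 to -125 and again at -66 to -62, with TATAAA at -33 to -28. The full element TGACGTCA lies at -143 to -136 of Dusp1, and Jun has the variant TGACATCA at -45 to -38; 7.49% of all promoters hold a match to TGACNTCA. Fosb alone held GCGGGGGCG, at -50 to -42 (2.57% of all promoters). The CArG box (1.47%) and TGANTCA (6.75%) had 0 matches in the 5 windows, which says only that these letters are not in these 250 bases. A match is a description of the sequence.

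The 8 genes lie on 7 chromosomes (GENCODE M21, GRCm38). Egr3 spans chr14:70077203-70082614 and Fos chr12:85473890-85477273 on the + strand. Fosb spans chr7:19302696-19310051, Jun chr4:95049034-95052222, Junb chr8:84974484-84978718, Ier2 chr8:84661331-84662852 and Dusp1 chr17:26505590-26562128 on the - strand. Their principal transcripts span a median of 3286.5 bases of the genome, against 22837 bases in tested coding genes; that of Dusp1 spans 2930 bases, a small part of its annotated gene. Jun, Junb and Ier2 have 1 exon in their principal transcript, Egr1 and Egr3 have 2, and Fos, Fosb and Dusp1 have 4 (GENCODE M21), against a median of 9 exons in 12820 tested coding genes, of which 2.79% have a single exon. The 3′ untranslated regions of 7 of the 8 hold AUUUA, a motif of short-lived mRNAs, and that of Ier2 holds 0. Only 31.6% of tested coding genes have such a region without AUUUA, so holding it is common. In the 7 genes the copies ran from 1 in Fosb to 7 in Egr3. The median was 2.95 copies per kilobase in the 8 genes and 1.29 in tested coding genes, with Fosb below the latter at 0.466.

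At postnatal day 3 the levels of the 8 genes were spread widely on the per-length FPKM scale. Ier2 had the highest level, 31.2 ± 4.53 FPKM over the 6 HET and WT libraries (mean ± SD, n = 6), above 89.7% of the 15391 genes tested. Jun followed at 13.98 ± 0.926 FPKM, then Egr1 at 6.38 ± 1.07 and Junb at 5.01 ± 0.572 FPKM. Each of these lay above the next in 6 of 6 libraries, although the ranges of Egr1 (4.93 to 7.31 FPKM) and Junb (4.39 to 5.75 FPKM) overlapped. The Junb gene has 2301 exon bases and its principal transcript 1809, while Egr1 has 4484 in both. The order of Egr1 and Junb therefore also depends on the length used for scaling. Dusp1, at 2.66 ± 0.506 FPKM, and Egr3, at 2.63 ± 1.05 FPKM, had close means. In FPKM Dusp1 was above Egr3 in 3 of 3 HET libraries and below it in 3 of 3 WT libraries. The Dusp1 gene has 3311 exon bases and its principal transcript 1990, so this order depends on the length used for scaling. Fos was at 1.085 ± 0.410 FPKM, above 3.20% of tested genes. Fosb, at 0.10 ± 0.058 FPKM, was close to undetected.

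**Figure D1:**
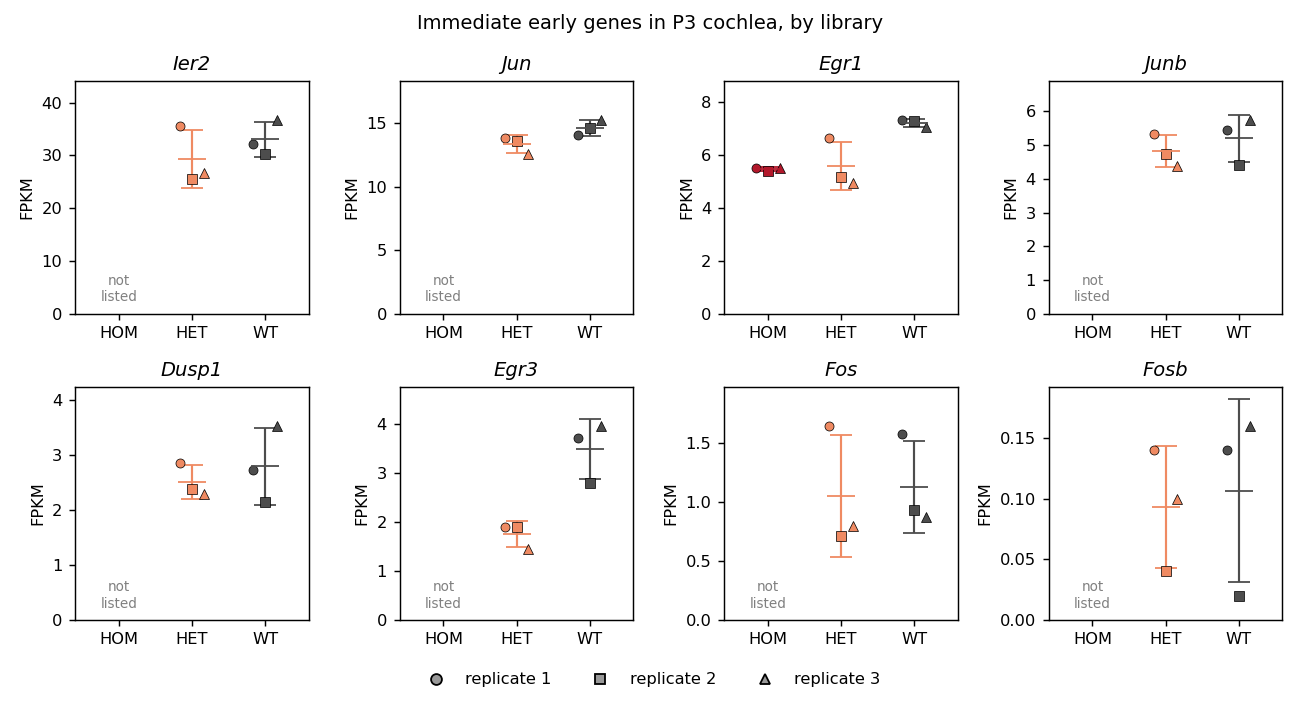
FPKM of each gene in every library, with HOM left of HET and WT (points: libraries, symbols by replicate number; bars: mean and SD, n = 3; each panel has its own axis from 0). Egr1 and Egr3 libraries of HET lie below all WT libraries, Egr1 in HOM lies at 5.38 to 5.50 FPKM, and Fos and Fosb are spread as widely within groups as between them.

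The comparison of HET with WT sets Pou4f3(Δ/+) cochleae beside wild-type ones. Xist, expressed in female cells, was at 53.95 to 107.88 FPKM in HET, and at 0.08, 78.17 and 0.06 FPKM in WT replicates 1 to 3. Genotype and sex therefore cannot be fully told apart in this comparison, and the part of sex was not tested. Egr3 had the largest difference of the 8 genes, with a HET mean at 50.05% of the WT mean, and the Egr1 mean was at 77.3%, while the other 6 genes had HET means between 87.5% (Fosb) and 93.2% (Fos) of WT. No immediate early gene passed the adjusted threshold. None of the 15391 genes tested passed it either (0 genes, 0.00%; limma on log2(FPKM + 1), Benjamini-Hochberg adjusted p under 0.05), with 266 genes (1.73%) at an unadjusted p under 0.05 and 0 called by limma-voom on recovered fragments. In bulk tissue, fewer cells of a type and less RNA per cell cannot be told apart.

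Of the EGR genes, Egr3 (chromosome 14) was at 1.90, 1.91 and 1.45 FPKM in HET replicates 1 to 3, against 3.73, 2.81 and 3.97 FPKM in WT. All 3 HET libraries were below all 3 WT libraries, and these values rest on 382 fragments in HET and 725 in WT. The difference was -0.71 on the log2(FPKM + 1) scale (SE 0.14, 95% interval -1.04 to -0.37), which understates the change of low genes. Its unadjusted p in limma was 0.00195, rank 17 of 15391 genes, and its adjusted p was 1.00; the exact permutation p was 0.1, two-sided, the smallest that 3 against 3 libraries allow. With a pseudocount of 0.1 the difference was -0.95, and without HET replicate 1 and WT replicate 3 it was -0.67 (limma adjusted p = 0.217).

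Egr1 (chromosome 18) was at 6.61, 5.16 and 4.93 FPKM in HET, against 7.31, 7.27 and 7.02 FPKM in WT. The groups did not overlap, and HET replicate 1 lay nearest to WT. The difference was -0.33 (SE 0.11, 95% interval -0.60 to -0.06, unadjusted p = 0.0232 and adjusted p = 1.00 in limma). Without HET replicate 1 and WT replicate 3 it was -0.46 (limma adjusted p = 0.175). Within each library Egr1 exceeded Egr3 by 3.48, 2.70 and 3.40 times in HET and by 1.96, 2.59 and 1.77 times in WT.

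Of the Jun genes, Jun was at 13.85, 13.6 and 12.5 FPKM in HET, against 14.04, 14.6 and 15.3 FPKM in WT. The groups did not overlap, with HET replicate 1 close to WT replicate 1, and the difference was -0.13 (SE 0.08, 95% interval -0.31 to 0.05, limma adjusted p = 1.00). Junb was at 5.32, 4.74 and 4.39 FPKM in HET, against 5.44, 4.42 and 5.75 FPKM in WT, with overlap and a difference of -0.09 (SE 0.12, 95% interval -0.37 to 0.19). Without HET replicate 1 and WT replicate 3 the differences of Jun and Junb were -0.12 and -0.09.

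Of the Fos genes, Fos was at 1.64, 0.71 and 0.79 FPKM in HET, against 1.57, 0.93 and 0.87 FPKM in WT. In each group replicate 1 was the highest, on 63 fragments in both cases against 29 to 32 in the rest. Fosb was at 0.14, 0.04 and 0.10 FPKM in HET, against 0.14, 0.02 and 0.16 FPKM in WT, which is 28 fragments in HET and 32 in WT over 3 libraries each. Neither gene reached 1 FPKM in 3 libraries, so neither was tested; both overlapped between the groups, with differences of -0.07 for Fos and -0.016 for Fosb. With no filter on low values limma gave an SE of 0.23 for Fos and 0.06 for Fosb, with an adjusted p of 1.00 for both.

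Ier2 was at 35.5, 25.6 and 26.8 FPKM in HET, against 32.2, 30.3 and 36.7 FPKM in WT. HET replicate 1 and WT replicate 3 had the highest levels, the groups overlapped, and the difference was -0.18 (SE 0.14, 95% interval -0.52 to 0.16). Without this pair of libraries the Ier2 difference was -0.25 (limma adjusted p = 0.213). Dusp1, the kinase phosphatase, was at 2.86, 2.39 and 2.29 FPKM in HET, against 2.72, 2.14 and 3.53 FPKM in WT. WT replicate 2 had the lowest and WT replicate 3 the highest Dusp1 of the 6 libraries; the difference was -0.10 (SE 0.16, 95% interval -0.48 to 0.28) and became +0.04 without WT replicate 3 and -0.03 without HET replicate 1 and WT replicate 3.

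Over the 6 genes tested, 6 had a negative difference, against 49.6% of all genes tested, and the median was -0.15, against 0.001 over all. Libraries did not overlap, with HET lower, for 3 of the 6 (Egr1, Egr3 and Jun), against 3.12% of all genes, and 2 of the 6 (Egr1 and Egr3) were lower at an unadjusted p under 0.05, against 0.845%. The list was chosen with such results of these data known, so these counts describe it and are no independent evidence of its direction. Overlapping genes limit 3 of the values, since it is not given how shared reads were counted or whether strand was used. In GENCODE M21 the Junb gene shares 351 bases with Prdx2 and Jun shares 689 bases with Junos, both on the opposite strand. The Dusp1 gene shares 640 bases with Ergic1 and 956 bases with the pseudogene Gm8225 on the opposite strand, and 1853 bases with AC122252.1 and 227 bases with AC122252.4 on its own strand.

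**Figure D2:**
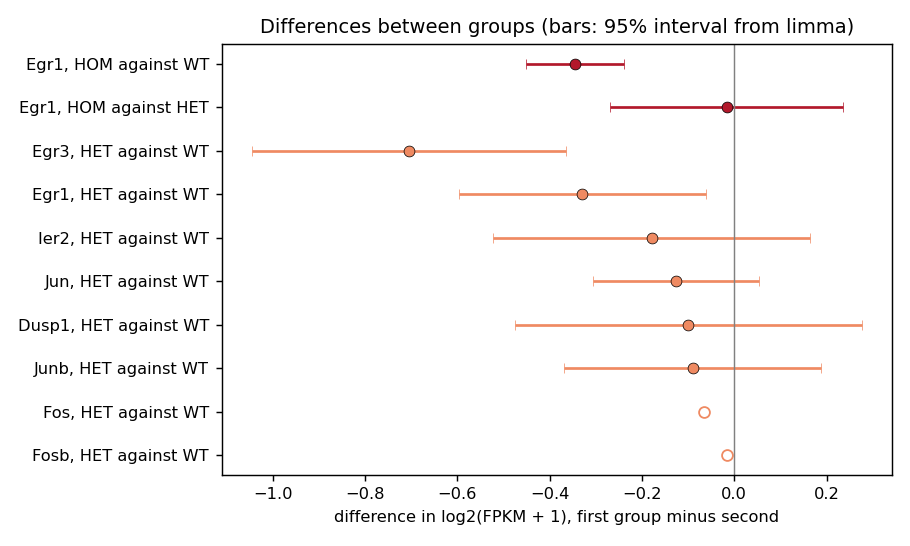
Differences in log2(FPKM + 1), first group minus second, for Egr1 in HOM and for the 8 genes in HET against WT (filled points: limma estimate with its 95% interval; open points: mean difference of genes not tested). The intervals of Egr3 and Egr1 in HET against WT lie below 0 before adjustment, and those of the other 4 tested genes include 0.

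The comparison of HOM with WT could be made for Egr1 alone. Egr1 was at 5.50, 5.38 and 5.48 FPKM in HOM, against 7.31, 7.27 and 7.02 FPKM in WT; the 3 HOM libraries lay close together and all below WT. HOM had 75.7% of the WT mean, a difference of -0.35 (SE 0.04, limma adjusted p = 0.00200 over 1109 listed genes tested). Among the listed genes 65.4% were called lower in HOM, and 69.1% were lower and 30.9% higher in HOM without overlap, so that every listed gene tested separates these groups; the list goes with this comparison, and nothing is read from the call. Median-ratio scaling puts the median difference of the listed genes at -0.03, against -0.22 without it. With this scaling Egr1 differed by -0.15 (limma adjusted p = 0.0232). Of the called genes 70.3% were lower in HOM without this scaling and 44.6% with it. In both HOM comparisons the scaling factors come from the listed genes alone, so the scaling itself draws the calls towards an even split.

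Between HOM and HET the Egr1 level was not separated. HOM libraries, at 5.38 to 5.50 FPKM, lay inside the range of HET libraries, 4.93 to 6.61 FPKM, with a difference of -0.016 (SE 0.10, 95% interval -0.27 to 0.24, limma adjusted p = 0.894); 36.3% of 1090 listed genes were called lower in HOM in this comparison, and lower genes made up 81.6% of the calls, against 50.2% under median-ratio scaling. The difference was +0.09 without HET replicate 1 and +0.13 under median-ratio scaling. Both comparisons use the same HOM libraries. The Egr1 gene spans bases 34859823 to 34864984 of chromosome 18 (GRCm38, + strand), 7.53 Mb from Pou4f3 on the same chromosome. Of 406 tested genes on chromosome 18, 51 (12.6%) were listed in HOM, against 7.35% of all tested genes.

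Other immediate early genes were compared by lists. Among 23 other immediate early transcription factor genes, 20 were tested in HET against WT; 0 were called, 15 were lower and the median difference was -0.11. The largest differences were those of Egr2, an EGR factor of myelinating Schwann cells (2.39 ± 1.06 FPKM in HET, 3.43 ± 0.711 FPKM in WT; -0.42), Klf4, a Krüppel-like factor (9.98 ± 0.363 FPKM in HET, 12.6 ± 2.06 FPKM in WT; -0.29, unadjusted p = 0.0430), and Myc (5.16 ± 0.834 FPKM in HET, 6.43 ± 0.885 FPKM in WT; -0.27; n = 3 each). Of the EGR family, Egr4 was at 0 to 0.09 FPKM and not tested, and the sum of Egr1, Egr2, Egr3 and Egr4 was 12.1, 8.86 and 8.27 FPKM in HET, against 14.96, 12.7 and 14.9 FPKM in WT. The summed Fos family (Fos, Fosb, Fosl1 and Fosl2) was 4.59 ± 0.456 FPKM in HET and 4.48 ± 0.849 FPKM in WT, and the summed Jun family (Jun, Junb and Jund) was 19.3 ± 1.29 FPKM in HET and 21.4 ± 1.39 FPKM in WT (n = 3 each).

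Of 28 other immediate early genes that encode signalling, RNA turnover and matrix proteins, 25 were tested, with 15 lower, 0 called and a median of -0.009. Gadd45b, a stress sensor (-0.28), Ier5l (-0.23) and Zfp36, which destabilises AU-rich mRNAs (-0.22), had the largest differences. Of 20 upstream regulators 10 were lower and 0 were called (median -0.004). Elk3, a ternary complex factor (6.64 ± 0.689 FPKM in HET, 8.31 ± 0.441 FPKM in WT; -0.29, unadjusted p = 0.0205), and Mrtfa, the actin-regulated partner of serum response factor (5.63 ± 0.374 FPKM in HET, 6.75 ± 0.362 FPKM in WT; -0.23, unadjusted p = 0.0318; n = 3 each), had negative differences, while the kinase gene Rps6ka5 differed by +0.26. Of the 12 feedback inhibitors and corepressors 7 were lower and 0 called (median -0.03), led by Fhl2 (-0.17), the EGR corepressor Nab2 (-0.16) and Spry4 (-0.14). Of 7 tested AP-1 and ATF partners 4 were lower and 0 called (median -0.006), with Maf at -0.16, Atf4 at -0.11 and Atf2 at +0.08.

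**Figure D3:**
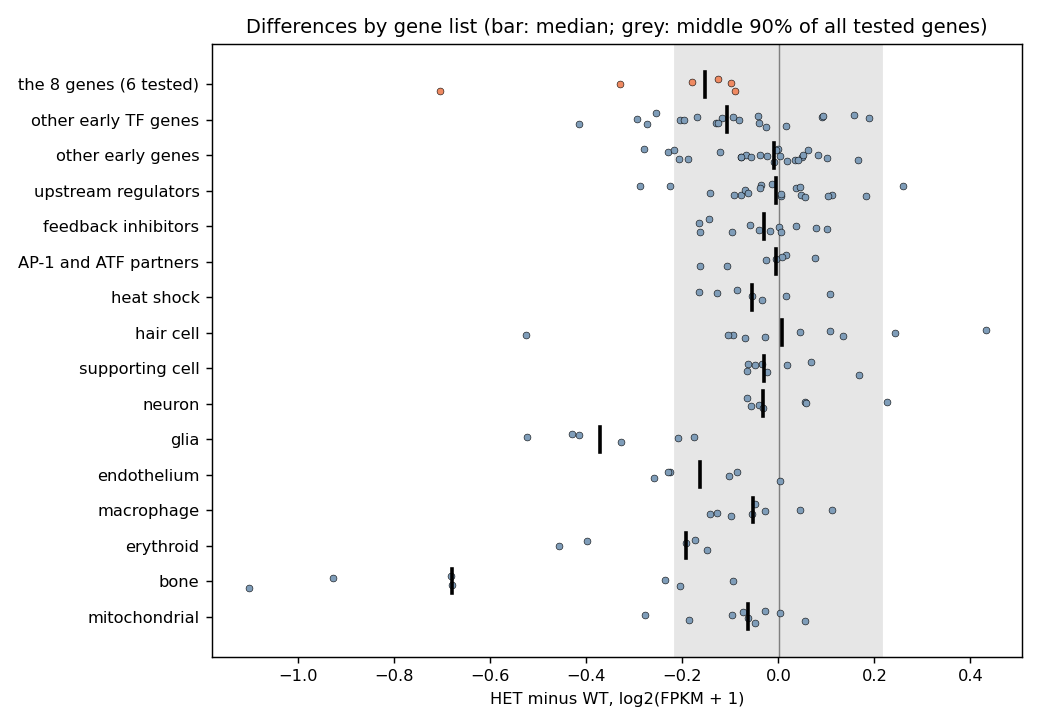
HET minus WT difference in log2(FPKM + 1) of each tested gene, by list (points: genes; bars: medians; grey: the middle 90% of 15391 tested genes, -0.22 to 0.22). The 6 tested genes of the group all lie below 0, and the bone, glia, erythroid and endothelium lists have lower medians than theirs.

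One other immediate early transcription factor gene is listed in HOM, Nr4a3, an orphan nuclear receptor, named here after its values were seen. Nr4a3 was at 1.89, 0.79 and 1.37 FPKM in HOM, against 3.57, 4.65 and 4.94 FPKM in HET and 3.89, 4.63 and 3.61 FPKM in WT. HOM lay below both other groups without overlap, at 33.4% of the WT mean (-1.12, SE 0.18, limma adjusted p = 0.00468) and 30.8% of the HET mean (-1.22, SE 0.19, limma adjusted p = 0.00598); 46.2% of listed genes lay lower in HOM than in HET without overlap. In HET against WT Nr4a3 differed by +0.09 (adjusted p = 1.00 in limma). As for Egr1, nothing is read from its call against WT, and the call against HET uses the same HOM libraries and the same list. With any single library left out both calls remained (limma adjusted p up to 0.0421). Since the listed genes go with the HOM comparison, this adds no support. Homer1 and Plk2 were the listed genes among the 28 other early genes, at 80.5% and 88.4% of the WT mean in HOM, and Hsph1 and Hsp90aa1 among 8 heat shock genes, at 57.9% and 78.8%. Of the upstream regulators Rps6ka5 was listed at 127% of the WT mean in HOM and Mrtfa at 84.65%. Of the feedback inhibitors Spry2 was at 87.9% and Spry4 at 74.6%, and of the AP-1 and ATF partners Mafg was at 81.8% and Mafk at 82.1%. The median HOM against WT difference of all listed genes tested was -0.22, and 69.1% of them lay lower without overlap. Homer1 (-0.21), Plk2 (-0.17), Spry2 (-0.18), Mrtfa (-0.21), Mafk (-0.24) and Mafg (-0.27) lay near this median. Hsph1 (-0.72), Spry4 (-0.36) and Hsp90aa1 (-0.34) lay further below it, and Rps6ka5 was higher in HOM (0.21). Nothing particular to early genes is read from these levels.

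Marker lists of some other cell types, but not of all, had mostly negative HET against WT differences, as the early genes had. All 6 glia markers (median -0.37), all 7 tested bone markers (-0.68), all 5 tested erythroid markers (-0.19) and 5 of 6 endothelial markers (-0.16) were lower in HET, with 0 called in each list; the glia list includes Egr2. The summed glia markers ran from 195.7 to 396.2 FPKM in HET and from 291.2 to 367.5 FPKM in WT, the bone markers from 34.2 to 42.8 FPKM in HET and from 41.4 to 75.2 FPKM in WT, the erythroid markers from 63.7 to 145.4 FPKM in HET and from 109.8 to 170.5 FPKM in WT, and the endothelial markers from 21.6 to 28.6 FPKM in HET and from 28.2 to 32.6 FPKM in WT. None of these markers was at 0 in every library. Macrophage (6 of 8 lower, median -0.05), heat shock (5 of 7, -0.05), neuron (4 of 7, -0.03), supporting cell (5 of 8, -0.03) and hair cell (5 of 10, 0.008) lists had medians closer to 0. The 9 mitochondrially encoded genes summed to 19170, 12310 and 12810 FPKM in HET, against 13620, 13990 and 17570 FPKM in WT, highest in HET replicate 1 and WT replicate 3. Xist, expressed from the inactive X chromosome of female cells, was at 53.95, 107.9 and 56.9 FPKM in HET, against 0.08, 78.2 and 0.06 FPKM in WT; in WT replicate 2, the WT library with Xist, Egr1 (7.27 FPKM) was near the other WT libraries and Egr3 (2.81 FPKM) was the lowest of WT. The part of these differences in the early gene values was not tested.

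Among themselves the 8 genes varied in the same direction across libraries. Pearson r of log2(FPKM + 1) over the 6 HET and WT libraries was above 0 in 28 of 28 pairs, from 0.12 (Fos and Jun) to 0.93 (Junb and Dusp1), with a median of 0.59. Egr1, Egr3 and Jun went together (r from 0.81 to 0.84), as did Junb, Ier2 and Dusp1 (0.80 to 0.93), whereas Fos had r of 0.24 with Egr3. The points share 6 libraries and their depth, so these values describe the libraries. An r over both groups also takes up the lower HET means of the 8 genes, whose list was chosen with earlier results known. All 8 had a negative r with the first axis of variance. The share of pairs above 0 among other genes was not computed, so the count is not shown to be particular to early genes. Along the first axis of variance, on which HET replicate 1 and WT replicate 3 are at the negative end, r was -0.90 for Ier2 and -0.73 for Dusp1, and -0.28 for Egr3. The mean centred level of the 8 genes was 0.07, -0.16 and -0.21 in HET replicates 1 to 3 and 0.15, -0.03 and 0.18 in WT.

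**Figure D4:**
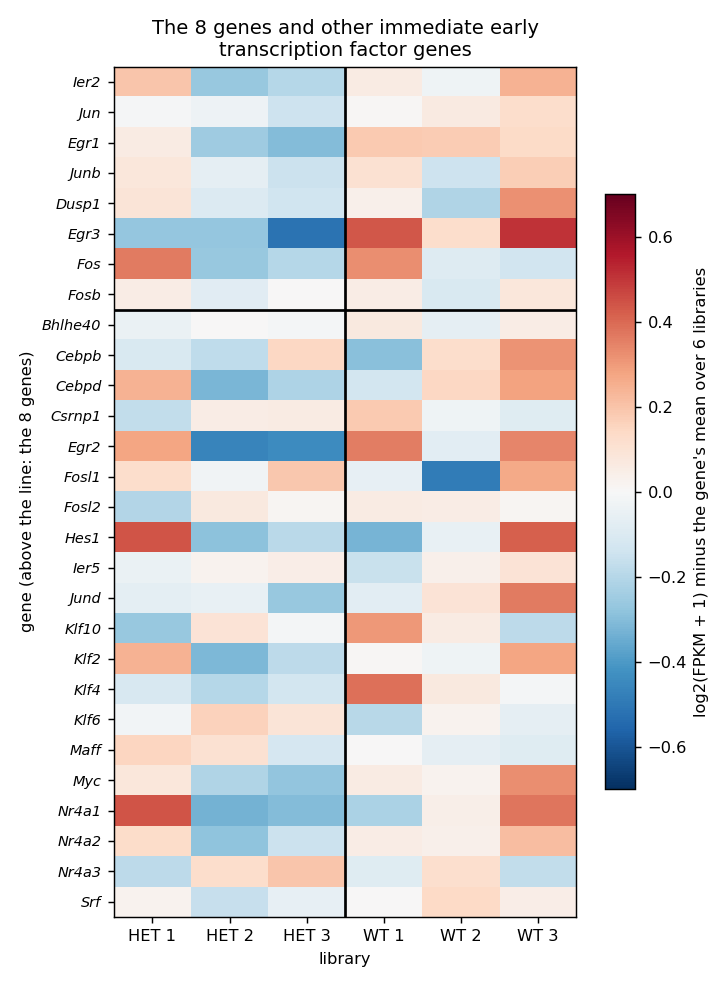
Level of each gene in each HET and WT library, as log2(FPKM + 1) minus the gene's mean over the 6 libraries (columns: libraries; colour: centred level; above the line: the 8 genes, below it: other early transcription factor genes). HET replicates 2 and 3 are below the mean for most of the 8 genes, HET replicate 1 is near or above it except for Egr3, and WT replicate 3 is the highest for Egr3, at 3.97 FPKM.

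The genes whose pattern over these 6 libraries was most like the mean of the 8, among 9467 genes at a mean of 5 FPKM or more, were Cd2bp2 (r = 0.998), Lhfp and the pseudogene Gm13245 (0.988 each), Usp1 (0.987), Pdk3 (0.985), Rbm22 and Rassf7 (0.979 each), Med24 (0.977), Rnf10 (0.976) and Cdpf1 (0.975). None of these 10 is in the lists of early genes. The lowest r were those of Mycl (-0.997), BC006965 (-0.992) and Galnt1 (-0.980). Of the 9467 genes, 183 had r above 0.9 and 113 had r below -0.9. The 10 genes were picked as the highest r of 9467 over 6 libraries, so their r is no evidence of shared regulation. They also varied little, with an SD of log2(FPKM + 1) from 0.0523 (Cd2bp2) to 0.157 (Gm13245).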

How the data were processed

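RNA-seq was made from cochleae at postnatal day 3, with 3 libraries in each of 3 groups. The deposited files hold FPKM values made by the authors, 1 file a library, with 2 decimals. The submitters' processing notes name DESeq2 and the mm8 build with no role. Aligner, counter and annotation: not given in the sources used here. Gene identifiers were matched to GENCODE M21 (51719 of the identifiers), whose exon lengths gave the depth: in genes of up to 600 bp, 99.34% to 100% of values under 10 fragments were whole within 0.1 at the depth chosen to make them so. Fragment counts are recovered from these; over all genes they summed to 107.98% to 108.22% of the depth in HET and WT libraries, so they are approximate.

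Each pair of groups was fitted in limma (version 3.58.1, R 4.3.3) to log2(FPKM + 1) with a mean-variance trend. Genes entered where 3 or more of the 6 libraries reached 1 FPKM, and p-values were adjusted by Benjamini-Hochberg over all of them (threshold 0.05). The fit was tested on simulated data with noise drawn independently for each gene. Such data lack the first axis of variance that these libraries share, so they do not test the fit under it. The 8 genes and all lists were chosen with earlier results of these data known. Named genes were the 8, in each early gene list the 3 with the largest absolute difference and those with an unadjusted p under 0.05, and the 10 most and 3 least alike in pattern. Alternatives were another pseudocount (0.1), no filter, median-ratio and upper-quartile scaling, no trend, left-out libraries, a replicate block and limma-voom, the last chosen after seeing the data. Motifs were searched in RefSeq promoters.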

Additional observations from a re-analysis of the deposited data

How the results depend on the processing

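In HET against WT, 85 of 86 values of the 8 genes under 14 alternatives were negative and 0 were called. The exception was Dusp1, 0.036 without WT replicate 3. The settings without the filter, without the trend and with the replicate block leave the estimate unchanged, and all settings reuse the same libraries. Fos and Fosb give 1 value each. The count is therefore no independent evidence of a direction. With 1 library left out, Egr3 ran from -0.82 to -0.62 and Egr1 from -0.44 to -0.26, Jun from -0.15 to -0.09, Ier2 from -0.32 to -0.09, Junb from -0.18 to -0.03 and Dusp1 from -0.23 to 0.036. Without HET replicate 1 and WT replicate 3 together, Egr1 was at -0.46 (adjusted p = 0.175 in limma) and Egr3 at -0.67 (0.217), and 2356 of 14844 genes had an unadjusted p under 0.05, against 266 of 15391 with all libraries, 1833 of 15151 without HET replicate 1, 167 without HET replicate 3 and 778 of 31906 with no filter. The number of genes called was 1 without WT replicate 1 and without WT replicate 2, and 0 without each other library. By limma-voom Egr3 differed by -0.99 and Egr1 by -0.38. Egr1 in HOM against HET changed sign under median-ratio scaling (+0.13) and without HET replicate 1 (range -0.085 to 0.095 over left-out libraries). In HOM against WT Egr1 ran from -0.36 to -0.34 over left-out libraries, and was at -0.15 under median-ratio scaling. It stayed called, from which nothing is read, since the list goes with this comparison. Genes called in HOM against WT numbered 1032, 639 under median-ratio scaling and 588, 594 and 672 without WT replicates 1, 2 and 3 (588 to 864 over left-out libraries); in HOM against HET they numbered 485, 304 under the replicate block, and 142 and 116 without HET replicates 2 and 3 (116 to 431). The replicate block changed no call of these genes (Egr3 -0.71, SE 0.17) and left 173 genes at an unadjusted p under 0.05; same-numbered HET and WT libraries do not deviate together (r of -0.52, 0.29 and -0.47), so the number alone does not pair them. The cause of these shifts was not tested. The lowest depth is behind Fosb, at 2 to 15 fragments per library, and Fos, at 29 to 63.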
